A study of Rattus norvegicus with 6 samples.

Results

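The expression of 10 imprinted genes that lie outside the Prader-Willi syndrome (PWS) domain, Peg3, Nnat, Mest, Sgce, Plagl1, Dlk1, Meg3, Gnas, Cdkn1c and Grb10, was examined in rat INS-1 lines with and without a working copy of that domain. The genes were taken by symbol from the table of counted reads, which holds 32900 features. Of the 10 symbols, 9 were found, in 10 rows, because Gnas has 2 Ensembl entries. Meg3 has no row in the table. Of the 10 rows, 6 were abundant enough to be tested (averaging 5 normalized counts or more), among 15579 tested genes in all.

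Total RNA depleted of rRNA was sequenced from 3 control lines and 3 PWS lines of INS-1(832/13)::mCherry, a rat insulinoma line of beta-cell origin that carries transgenes for human insulin and for a mouse Ins2 C-peptide fused to mCherry. All 6 lines lack the PWS domain on the silent maternal allele. The control lines (5-9, 2 and 16) keep the active paternal allele, and the PWS lines (3, 19-1 and 19-4) lack the domain on both alleles. All lines grew in 7.5 mM glucose with no treatment. Lines 2 and 16 and every PWS line were derived from line 5-9, line 3 has a different proximal breakpoint, and lines 19-1 and 19-4 are subclones of line 19, so that the PWS group stands for fewer independent clones than lines. Each line gave 1 library, and p-values therefore measure the spread between lines, which also holds clonal and culture differences.

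Imprinted genes are expressed mainly from the allele of 1 parent, under the control of regions whose DNA methylation is set in the egg or the sperm and kept in the embryo by the methyltransferase DNMT1 and by zinc finger proteins that recruit TRIM28. Many imprinted genes act in growth and in hormone secretion, and several are known from pancreatic islets. Peg3, Nnat, Mest, Sgce, Plagl1 and Dlk1 are known as paternally expressed. Meg3 and Cdkn1c are maternally expressed, and Gnas and Grb10 are maternally expressed in some tissues and from both alleles or the paternal allele in others. The values below are sums over both alleles, since the tables do not separate them.

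The counts of each line summed to 26016478 to 36084261, in which a read shared between genes enters more than once. Without shared reads the sums were 17530149 to 23022637. Values are normalized counts, the reads divided by a size factor for each line, in which 1 read is worth 0.909 to 1.20 normalized counts. Snurf, a gene of the deleted domain used to check the labels, stood at 3160 to 3992 in the control lines and at 0 to 3.64 in the PWS lines. Across genes, control line 2 correlated with the other control lines at r = 0.981 to 0.985, below the highest value within the control lines, 0.990. Values without it are given beside the tested imprinted genes that it moved most, Grb10, Nnat and Mest, and beside several other genes. Of 15 beta-cell markers, 14 were in the table and none was at 0. Their summed level, carried mostly by Ins1 and Iapp, was 515608 to 593485 in control lines and 279640 to 485691 in PWS lines. Of the 14 markers, 4 had a higher and 10 a lower mean in the PWS group (median difference -0.11 on the log2 scale), with 0 called by limma, edgeR or DESeq2, and 3 at an unadjusted p-value under 0.05 in limma (Ins1, Ins2 and Iapp, all lower), against 5.35% of all tested genes at such a p-value and lower. The lines are clonal, and bulk RNA does not show whether a lower level holds in all cells of a line or in some of them. The other lists stayed at much lower sums: alpha cell 185 to 217 in control and 181 to 294 in PWS lines, delta cell 0.918 to 2.85 and 1.20 to 13.6, PP cell 0 to 2.75 and 0, acinar 0 to 2.05 and 0 to 1.02, duct 1770 to 1914 and 1287 to 1926, and fibroblast, endothelial and immune 31.3 to 34.9 and 28.6 to 30.9. 

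The upstream windows of 5 of the genes are shown because they span the cases met below: Peg3 and Mest with abundant reads, Grb10 with the largest difference, and Sgce and Dlk1 with almost no read. Each is the 250 bases before the gene's start, 5′ to 3′ on the gene's strand, from RefSeq on assembly GRCr8. Capitals mark GCGGCA, the reverse complement of TGCCGC, which ZFP57 is known to bind when it is methylated and which was searched on both strands.
Peg3, chr1:76130744-76130993, plus strand: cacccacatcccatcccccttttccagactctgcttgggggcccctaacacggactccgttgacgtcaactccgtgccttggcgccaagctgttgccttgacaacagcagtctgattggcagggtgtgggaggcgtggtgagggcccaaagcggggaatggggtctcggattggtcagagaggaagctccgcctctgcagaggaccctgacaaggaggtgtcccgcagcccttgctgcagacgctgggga
Mest, chr4:60321564-60321813, plus strand: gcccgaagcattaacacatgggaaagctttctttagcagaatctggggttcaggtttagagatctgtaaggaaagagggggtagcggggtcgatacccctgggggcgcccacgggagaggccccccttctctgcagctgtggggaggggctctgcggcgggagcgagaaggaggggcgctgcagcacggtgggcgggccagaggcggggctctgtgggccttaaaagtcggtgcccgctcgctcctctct
Grb10, chr14:90816388-90816637, minus strand: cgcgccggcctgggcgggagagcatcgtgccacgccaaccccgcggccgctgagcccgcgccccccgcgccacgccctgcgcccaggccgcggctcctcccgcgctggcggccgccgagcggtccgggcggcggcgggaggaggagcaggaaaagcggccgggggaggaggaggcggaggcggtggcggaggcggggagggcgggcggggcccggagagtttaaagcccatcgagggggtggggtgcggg
Sgce, chr4:33808789-33809038, minus strand: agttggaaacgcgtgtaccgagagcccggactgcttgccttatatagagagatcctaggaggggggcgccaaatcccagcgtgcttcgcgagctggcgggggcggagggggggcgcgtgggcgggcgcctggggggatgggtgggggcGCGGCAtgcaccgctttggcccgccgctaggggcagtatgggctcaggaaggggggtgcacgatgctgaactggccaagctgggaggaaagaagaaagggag
Dlk1, chr6:134192347-134192596, plus strand: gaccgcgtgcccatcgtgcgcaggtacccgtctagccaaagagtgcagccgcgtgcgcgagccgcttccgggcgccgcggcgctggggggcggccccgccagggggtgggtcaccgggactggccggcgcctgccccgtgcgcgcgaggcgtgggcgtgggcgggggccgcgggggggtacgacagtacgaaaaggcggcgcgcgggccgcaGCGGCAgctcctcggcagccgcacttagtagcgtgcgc

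RefSeq's table held 10 such windows for 8 of the genes, with 3 for Gnas and none for Nnat or Cdkn1c. They held 10 to 41 CpG dinucleotides, and all 10 lay above the median of 5 over 33469 rat promoters of the same length. Dlk1 had 41, Grb10 38, Sgce 20, Mest 15 and Peg3 11. The hexamer was found in 4 of the 10 windows, those of Plagl1, Sgce, Dlk1 and Meg3, and in 8.91% of all promoters. It contains a CpG itself, and the share over all promoters was not matched for CpG content, so the 2 shares cannot be compared directly. No methylation was measured at these windows, so the letters are a description of the windows only. CpG-rich windows belonged to genes with reads (Grb10) and to a gene with none (Dlk1).

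The genes fell into those with abundant reads (Peg3, Gnas, Nnat, Mest), Grb10 with 19 to 109 reads per line, and those at or near no read (Plagl1, Sgce, Dlk1, Cdkn1c). In limma, 0 of the 6 tested rows passed at an adjusted p of 0.05, against 0.257% of all tested genes (0.00642% higher and 0.25% lower in PWS lines). At an unadjusted p-value under 0.05 there were 2 of 6, Nnat and Grb10, against 11.3% of all genes (6.0% higher and 5.35% lower). edgeR's quasi-likelihood test on the recovered reads called 0 of the 6 (0.205% of all genes), and DESeq2 called 1, Grb10 (1.46% of all genes, 0.68% higher and 0.783% lower). The lines of the 2 groups did not overlap for 1 of 6, Grb10, against 17.4% of all genes (8.43% higher and 9.01% lower). Gnas enters the summaries of the 6 rows through 2 rows that share reads (r = 0.992 over the 6 lines), both slightly higher on average in PWS lines. The median log2 fold change of the 6 rows was 0.03, with 4 higher and 2 lower in PWS lines. Their median size was 0.25 on the log2 scale, against 0.12 over all tested genes. With 1 line left out, the median ran from -0.062 (without control line 2) to 0.091 (without control line 16), and it was also negative without line 19-1 (-0.028). An exact permutation test of 3 lines against 3 allows no two-sided p-value under 0.1.

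**Figure D1:**
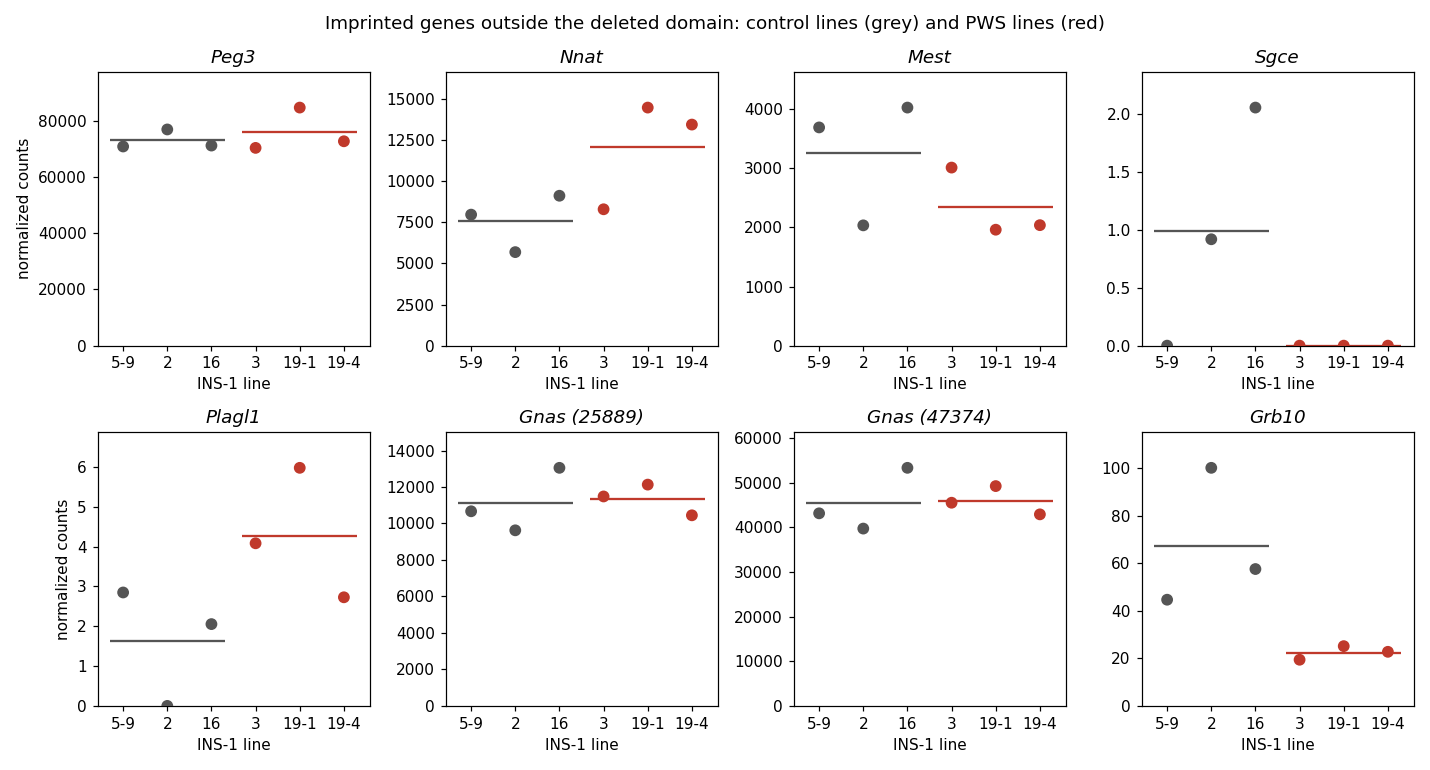
Normalized counts (vertical axes, linear and starting at 0, each panel with its own scale) of the 8 rows with at least 1 read, for control lines (grey) and PWS lines (red); points are lines and horizontal bars are group means, and numbers after Gnas are the last digits of its Ensembl entries. The groups separate for Grb10, with control lines at 44.6 to 100.1 and PWS lines at 19.4 to 25.1, and overlap for Peg3, Nnat, Mest and both Gnas rows.

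Grb10 (ENSRNOG00000004290) encodes an adaptor that binds the insulin and IGF1 receptors and dampens their signal. It had 44.6 normalized counts in control line 5-9, 100.1 in line 2 and 57.5 in line 16, and 19.4 in PWS line 3, 25.1 in line 19-1 and 22.7 in line 19-4. Every PWS line lay below every control line, and the PWS lines lay closer together than the control lines. The means were 67.4 ± 29.0 in control and 22.4 ± 2.87 in PWS lines (SD, n = 3 each), from 212 and 65 reads in all. On log2(normalized count + 1), the difference was -1.47 (SE 0.31, 95% interval -2.18 to -0.76), or 2.77-fold lower in PWS lines. It did not pass limma's test (adjusted p = 0.238) or edgeR's (adjusted p = 0.242). DESeq2 gave -1.59 with an adjusted p of 0.0138, and this call was lost in 4 of 6 fits with 1 line left out. One of these was the fit without control line 2 (-1.19, DESeq2 adjusted p = 0.207). The others were those without PWS lines 3, 19-1 and 19-4 (-1.50, -1.68 and -1.60, DESeq2 adjusted p = 0.0747, 0.0860 and 0.130). All reads of Grb10 were assigned uniquely, and the count without shared reads gave -1.47 as well. Without control line 2, its highest line, the difference was -1.15 (limma adjusted p = 0.343), and leaving out any 1 line gave -1.72 to -1.15.

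Nnat (ENSRNOG00000024923) encodes neuronatin, a small membrane protein of the endoplasmic reticulum that binds the signal peptidase complex in beta cells. Control lines 5-9, 2 and 16 gave 7963, 5685 and 9111 normalized counts. It had 8289 in PWS line 3, 14470 in line 19-1 and 13437 in line 19-4. The subclones of line 19 lay above all control lines, while line 3 lay below control line 16, so the groups overlapped. The means were 7586 ± 1744 and 12065 ± 3311 (SD, n = 3 each). The difference was 0.66 on the log2 scale (SE 0.23, 95% interval 0.12 to 1.19) and did not pass the test (limma adjusted p = 0.365, edgeR adjusted p = 0.350, DESeq2 adjusted p = 0.0604). Without PWS line 3 it was 0.91 (limma adjusted p = 0.176), and DESeq2 then gave an adjusted p of 0.000737. With lines 19-1 and 19-4 averaged into 1 sample it was 0.53 (limma adjusted p = 0.657). Without control line 2, the lowest line, it was 0.46. Nnat lies within Blcap in the rat annotation, and 99.4% of its reads were assigned to it alone.

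Mest (ENSRNOG00000048088) encodes a membrane protein of the endoplasmic reticulum with a hydrolase fold. Control lines 5-9, 2 and 16 had 3693, 2036 and 4029 normalized counts, and PWS lines 3, 19-1 and 19-4 had 3014, 1962 and 2039. Control line 2 was at the level of lines 19-1 and 19-4, and PWS line 3 lay between them and the other control lines. The means were 3253 ± 1067 and 2338 ± 586 (SD, n = 3 each), with a difference of -0.44 on the log2 scale (SE 0.26, 95% interval -1.04 to 0.16, limma adjusted p = 0.564). Without control line 2 the difference was -0.75 (limma adjusted p = 0.362, DESeq2 adjusted p = 0.0104), and without control line 16 it was -0.26. The beta-cell marker sum was lower in every PWS line than in any control line, as given above, and its part in the values of Nnat, Mest and Grb10 was not tested.

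**Figure D2:**
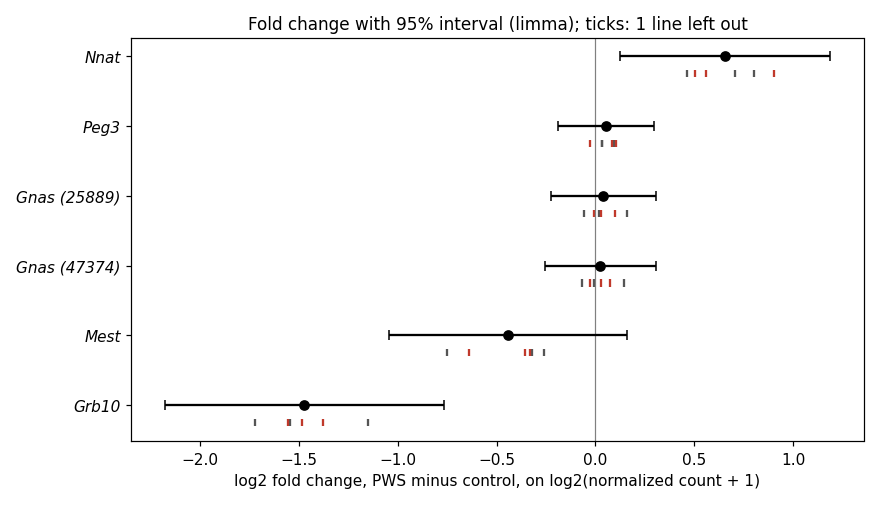
Difference between PWS and control lines in log2(normalized count + 1) (horizontal axis, PWS minus control) for the 6 tested rows; points and bars are limma's estimate and its 95% interval, and ticks under each give the value with 1 control line (grey) or 1 PWS line (red) left out. The intervals of Peg3, Mest and both Gnas rows include 0, and those of Nnat (0.12 to 1.19) and Grb10 (-2.18 to -0.76) do not.

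Peg3 (ENSRNOG00000014791) encodes a large zinc finger protein. Control lines 5-9, 2 and 16 gave 70882, 76946 and 71213 normalized counts, and PWS lines 3, 19-1 and 19-4 gave 70385, 84732 and 72738. Of the 6 lines, 5 lay between 70385 and 76946, and line 19-1 was highest. The difference was 0.05 on the log2 scale (SE 0.11, 95% interval -0.19 to 0.30, limma adjusted p = 0.892). Without line 19-1 it was -0.028, so its sign rests on that line.

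Gnas encodes the stimulatory G protein subunit that links receptors, among them that for GLP-1, to adenylyl cyclase, and its locus also gives rise to other imprinted transcripts. The row ENSRNOG00000047374 stood at 43134, 39716 and 53324 in control lines 5-9, 2 and 16, and at 45508, 49234 and 42903 in PWS lines 3, 19-1 and 19-4. The PWS lines lay within the range of the control lines, with a difference of 0.02 on the log2 scale (SE 0.12, 95% interval -0.26 to 0.31, limma adjusted p = 0.961). The row ENSRNOG00000025889 had 9625 to 13051 in control and 10448 to 12131 in PWS lines, with a difference of 0.04 (SE 0.12, 95% interval -0.23 to 0.31, limma adjusted p = 0.930). The entries share reads: 76.9% of the reads of the first and 6.68% of those of the second were unique to it, so their values cannot be added. Counted without shared reads, the second row had 712.5 ± 241 and 791 ± 45.5 normalized counts (SD, n = 3 each) and a difference of 0.21. The transcripts of the locus cannot be told apart in these values.

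The remaining genes were near or at the limit of detection, set here at 3 reads per line, worth 2.73 to 3.59 on the normalized scale. Plagl1 (ENSRNOG00000025587), a zinc finger transcription factor whose locus is linked to transient neonatal diabetes in humans, had 3, 0 and 2 reads in control lines 5-9, 2 and 16 and 4, 5 and 3 reads in PWS lines 3, 19-1 and 19-4. Sgce (ENSRNOG00000046905), a sarcoglycan of the cell membrane, had 0, 1 and 2 reads in the control lines and 0 in each PWS line. Dlk1 (ENSRNOG00000019584), a membrane protein related to Notch ligands, and Cdkn1c (ENSRNOG00000059500), an inhibitor of cyclin-dependent kinases, had 0 reads in all 6 lines. No difference was detectable for these genes at this depth. Dlk1 and Meg3 share a cluster with many miRNA genes, of which 49 within 1000 kb of Dlk1 have a row. Of these 49, chosen after values were seen, 48 had no read and Mir1247 had 1 read in 1 control line. How well these libraries capture short RNAs was not tested.

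**Figure D3:**
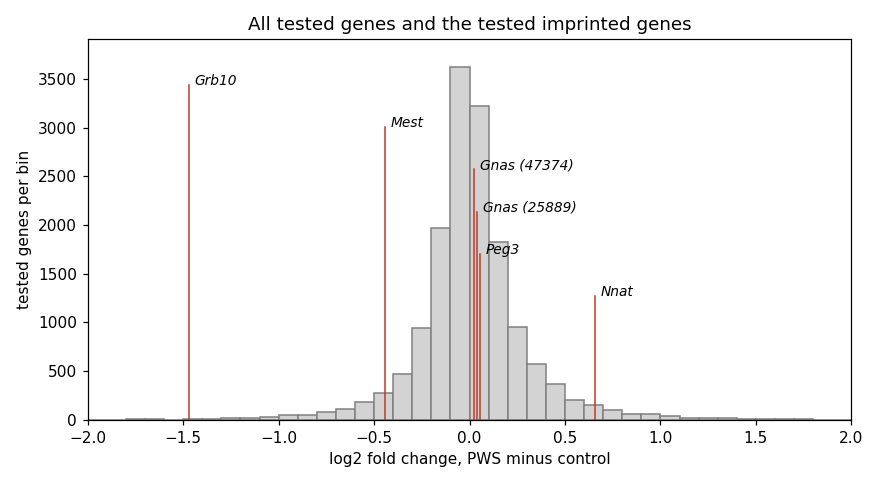
Number of tested genes (vertical axis) by their log2 fold change between PWS and control lines (horizontal axis, bins of 0.1), with red lines at the 6 tested rows; line heights carry no value, and 76 genes lie outside the axis. Peg3 and both Gnas rows sit in the centre of the distribution, Nnat at 0.66 and Mest at -0.44 on its flanks, and Grb10 at -1.47 in its lower tail, where 0.828% of genes had a change at least as large in size.

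Genes in the same imprinted clusters were read from the same fit. Of 39 listed neighbours, 29 had a row and 20 were tested. limma and edgeR called 0 of the 20, and 4 had an unadjusted p-value under 0.05 in limma, against 11.3% of all genes. DESeq2, which called 1.46% of all genes, called Cobl (adjusted p = 0.0369) and Phactr2 (adjusted p = 0.0385). With 1 line left out, the call of Cobl was lost in 5 of 6 fits and that of Phactr2 in 4 of 6. In limma, the differences with 1 line left out ran from 0.38 to 0.49 for Cobl and from 0.63 to 1.05 for Phactr2. The groups did not overlap for 7 of 20, against 17.4% of all genes, with Blcap, Cobl, Ddc and Phactr2 higher and Kcnq1, Nelfcd and Cd81 lower in PWS lines. The median difference was 0.08 on the log2 scale, against -0.0028 over all tested genes, and it turned to -0.048 without control line 2, with 11 of 20 then lower.

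Around Grb10, both neighbours were higher on average in PWS lines, where Grb10 itself was lower. Cobl, an actin nucleator, stood at 450, 497 and 429 normalized counts in lines 5-9, 2 and 16 and at 594, 662 and 596 in PWS lines 3, 19-1 and 19-4, a difference of 0.43 (SE 0.095, limma adjusted p = 0.258). Ddc, the decarboxylase that makes dopamine and serotonin, had 1069, 454 and 1015 in the control lines and 1168, 1317 and 1181 in the PWS lines, a difference of 0.63 (SE 0.29, limma adjusted p = 0.463). Control line 2, lowest for Ddc, was the highest for Grb10, and without it Ddc differed by 0.23 and Cobl by 0.49.

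Blcap, the gene that surrounds Nnat, stood at 830, 885 and 879 normalized counts in lines 5-9, 2 and 16 (control) and at 933, 1135 and 1196 in PWS lines 3, 19-1 and 19-4, a difference of 0.32 (SE 0.10, limma adjusted p = 0.332). As for Nnat, lines 19-1 and 19-4 were highest, and over the 6 lines Nnat and Blcap correlated at r = 0.85. At Mest, Copg2 differed by -0.11 (SE 0.083), or -0.034 without line 19-1, and Cpa4, with 8.26 to 40.1 normalized counts, by -0.20 (SE 0.60), with a sign that turned without control line 16 (0.43) or PWS line 3 (0.25). At Peg3, Zim1 had 17.1, 8.26 and 15.4 in the control lines and 30.6, 46.6 and 14.5 in the PWS lines, a difference of 1.03 (SE 0.45, limma adjusted p = 0.444). Without line 19-1 it was 0.66. Usp29, a deubiquitinase gene next to Peg3, differed by 0.24 (SE 0.15), or 0.081 without control line 2.

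Neighbours of the genes with few or no reads were often expressed. Phactr2, beside Plagl1, stood at 158, 87.2 and 140 normalized counts in lines 5-9, 2 and 16 (control) and at 188, 249 and 259 in PWS lines 3, 19-1 and 19-4, a difference of 0.88 (SE 0.23, limma adjusted p = 0.279), or 0.63 without control line 2. Kcnq1, a potassium channel gene in the cluster of Cdkn1c, had 196, 386 and 269 in the control lines and 169, 166 and 147 in the PWS lines, a difference of -0.76 (SE 0.23, limma adjusted p = 0.311), or -0.51 without control line 2. Its control line 2 was again the highest, as for Grb10, and Kcnq1 and Grb10 correlated at r = 0.95 over the 6 lines. Igf2, the growth factor gene of that region, had 2342 to 3850 and 2552 to 3599 normalized counts and differed by 0.08 (SE 0.19), or -0.088 without control line 2. Nelfcd near Gnas differed by -0.14 (SE 0.069), or -0.085 without line 19-1.

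**Figure D4:**
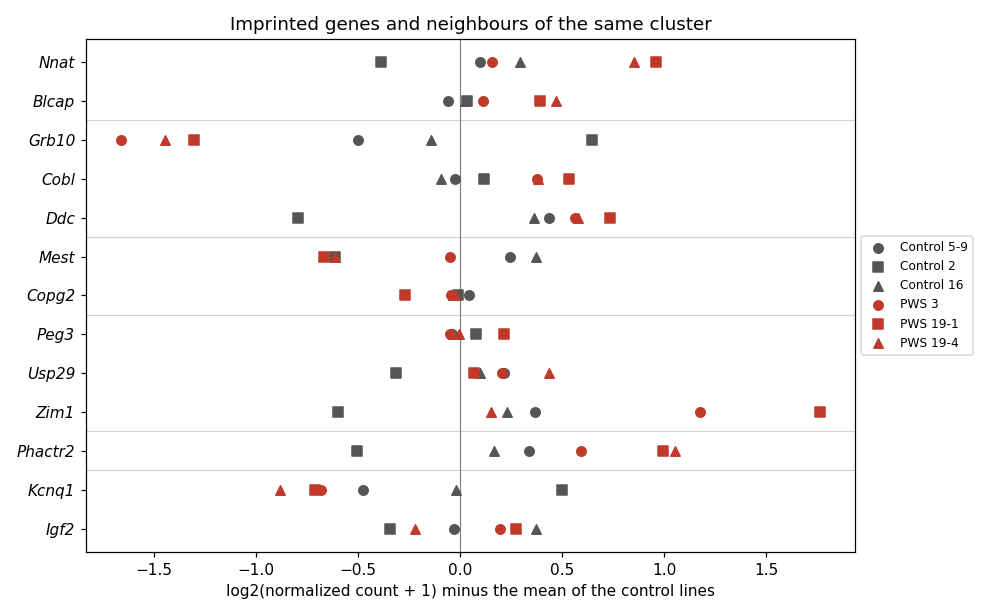
Difference of each line from the mean of the control lines in log2(normalized count + 1) (horizontal axis) for imprinted genes and genes of the same clusters (rows, with grey lines between clusters), in control lines (grey) and PWS lines (red), with a symbol for each line. The PWS lines sit left of every control line for Grb10 and Kcnq1 and right of every control line for Blcap, Cobl, Ddc and Phactr2, while control line 2 lies apart from the other control lines for Nnat, Grb10, Ddc, Mest and Phactr2.

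Imprinted genes of other clusters were listed too. Of 24 listed, 20 had a row and 15 were tested, with 7 higher and 8 lower on average, and 6 to 8 lower with 1 line left out. limma, edgeR and DESeq2 called 0 of the 15, and 4 had an unadjusted p-value under 0.05 in limma, against 11.3% of all genes. The highest and lowest differences were Inpp5f at 0.21, Nap1l5 at 0.20 and Jade1 at 0.18, and Gab1 at -0.62, Slc38a4 at -0.22 and Dhcr7 at -0.21. Gab1 was at -0.29 without line 19-4, Slc38a4 at -0.12 without line 19-1 and Jade1 at 0.085 without control line 2. Inpp5f, Nap1l5, Jade1 and Ago2 lay above all control lines in every PWS line, and Dhcr7, an enzyme of cholesterol synthesis, below them, and such separation held for 5 of 15, against 17.4% of all genes. Igf2r, the receptor that clears IGF2, differed by 0.0087 (SE 0.063), with a sign that turned without control line 16 (-0.021) or line 19-1 (-0.0074).

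The genes that set and keep imprints were expressed in the lines, with exceptions. Of 13 rows, 9 were tested, and limma, edgeR and DESeq2 called 0 of them, with 2 at an unadjusted p-value under 0.05 in limma, against 11.3% of all genes. Uhrf1, which brings DNMT1 to replicated DNA, stood at 3193, 3433 and 3088 normalized counts in lines 5-9, 2 and 16 (control) and at 2805, 2620 and 2495 in PWS lines 3, 19-1 and 19-4, a difference of -0.29 (SE 0.074, limma adjusted p = 0.277). Dnmt1 itself differed by -0.08 and Dnmt3b by -0.04, the latter 0.058 without control line 2 and 0.074 without line 19-1. Tet3, an enzyme that oxidises methylated cytosine, differed by 0.36 (SE 0.15, limma adjusted p = 0.423), Tet2 by 0.15 and Dnmt3a by 0.11. Without line 19-1 these were 0.24, 0.055 and 0.039. Trim28 had 11161 to 11933 normalized counts over the 6 lines and Zfp445 2244 to 2652, whereas Zfp57 had 0 reads in all lines.

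Genes whose products are related to or act with those of the imprinted genes were listed as well. Of 13 paralogues, 7 were tested, and limma, edgeR and DESeq2 called 0 (0.257%, 0.205% and 1.46% of all genes), with 0 at an unadjusted p-value under 0.05 in limma, against 11.3% of all genes. The paralogues of Grb10 had a difference of 0.02 for Grb14 and 0.08 for Grb7, and the other kinase inhibitors 0.12 for Cdkn1a and -0.13 for Cdkn1b. Plagl2 differed by 0.14, Sgcb by 0.07 and Plag1, with 3.80 to 10.1 normalized counts, by -0.25. Without control line 2, Plag1 differed by 0.14 and Plagl2 by 0.073, and without line 19-4 Cdkn1a differed by -0.18. Cdkn1b ran from -0.26 without control line 2 to -0.035 without control line 16. Grb14 was at -0.015 without control line 2, Grb7 at 0.041 without line 19-1 and Sgcb at 0.026 without line 19-4. Of 55 partners, 49 were tested, and limma, edgeR and DESeq2 called 0, with 7 at an unadjusted p-value under 0.05 in limma, against 11.3% of all genes.

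Among the partners, Insr, the insulin receptor that Grb10 binds, stood at 1179, 1083 and 1358 normalized counts in lines 5-9, 2 and 16 (control) and at 1356, 1620 and 2013 in PWS lines 3, 19-1 and 19-4, a difference of 0.45 (SE 0.15, limma adjusted p = 0.338). Line 3 lay just below control line 16, so the groups overlapped. Adcy3, an adenylyl cyclase with only 8.26 to 16.4 normalized counts, differed by 0.39 (SE 0.30), or 0.20 without control line 2. Gigyf1, which binds Grb10, differed by 0.32 (SE 0.10). At the other end, the Notch ligand Dll1 had 65.5, 196 and 92.4 in the control lines and 57.2, 51.4 and 27.3 in the PWS lines, a difference of -1.28 (SE 0.42, limma adjusted p = 0.341), or -0.84 without control line 2. Ccnd1, a cyclin, differed by -0.91 (SE 0.34), or -0.52 without control line 16, and the Notch ligand Jag1 by -0.88 (SE 0.39), or -0.45 without control line 2. Control line 2 was highest for both Notch ligands. By gene, all 7 tested partners of Nnat (median difference -0.11), all 9 of Cdkn1c (-0.18) and 7 of 10 of Dlk1 (-0.19) had a lower mean in the PWS lines, and 0 of them were called, where 7901 of all 15579 tested genes had a lower mean. Without control line 2, these counts were 7 of 7 (median -0.15), 7 of 9 (-0.14) and 4 of 10 (0.081), so that the direction of the Dlk1 list rests on that line. Of the Nnat partners, 6 of 7 were lower without PWS line 3 (median -0.10) and 5 of 7 without line 19-1 (-0.12). The partners of Grb10 were lower for 4 of 9 and those of Gnas for 5 of 10.

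The genes most like each imprinted gene over the 6 lines were taken by Pearson's r among 11023 tested genes that have a symbol other than a clone name and average 50 normalized counts or more. With 6 lines and so many genes, such values describe the libraries, which share the group difference and line 2, and carry no test. They were Mien1 (r = 0.992), Tmem50b (0.988) and Kcnmb4 (0.988) for Grb10. For Nnat they were Npepps (0.997), Shroom2 (0.997) and Dmxl1 (0.994), and for Mest Fsip1 (0.992) and Sod1 (0.992). For Peg3 they were Top2b (0.994), Hdac9 (0.993) and Errfi1 (0.988). Each Gnas row was most like the other (0.992), followed by Stx3 (0.991 and 0.992), and then Osbpl2 (0.984) for ENSRNOG00000025889 and Tpd52l1 (0.978) for ENSRNOG00000047374. Among the imprinted genes themselves, Nnat and Grb10 ran opposite at r = -0.73, as did Peg3 and Mest at r = -0.71.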

How the data were processed

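Total RNA of 6 INS-1 lines was depleted of rRNA and sequenced. The authors trimmed reads with cutadapt and aligned them with STAR 2.7.0e to the Ensembl release 98 rat genome with transgenes added. They counted the reads with HTSeq 0.11.2 (nonunique all or nonunique none) or RSEM 1.3.1, and divided by DESeq2 size factors. With nonunique all, a read counts at every place it aligns and for every gene it overlaps. The paper gives the libraries as stranded (fr-firststrand), but the strand setting of the counting is not given in the sources used here. The deposited values are thus a signal, and for both HTSeq countings 100% of values above 0 were whole multiples of the value of 1 read, so reads were recovered. The tables also hold the authors' fold changes and p-values, which were not used.

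The nonunique all table was compared with limma 3.58.1 in R 4.3.3 (lmFit, eBayes with trend) on the normalized counts as log2(value + 1). Tested were genes whose mean reached 5, with Benjamini-Hochberg adjustment over all tested genes at 0.05, two-sided. Fold changes on this scale understate those of low genes. edgeR 4.0.16 and DESeq2 1.42.0 on recovered reads were alternatives, beside other pseudocounts, filters, TMM scaling, no variance trend, the other tables, each line left out (also in DESeq2), the replicate number as a block and lines 19-1 and 19-4 averaged. The tests were tested on simulated data. No pair of lines agreed within sampling noise.

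The genes and lists (cluster neighbours, other imprinted genes, paralogues, partners, imprint machinery and cell type markers) were chosen with earlier results of these data known. Named were the imprinted genes, every called gene and the 3 largest and 3 smallest fold changes per list, and the 3 genes most like each tested gene, and others named were chosen after their values were seen. Among the most alike genes, 1 is not reported here. Trim28 and Zfp445 are in 2 lists. Promoter windows and gene neighbourhoods come from RefSeq on GRCr8, which may differ from the files' build.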

Additional observations from a re-analysis of the deposited data

How the results depend on the processing

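Of the 6 tested rows, Grb10, Nnat and Mest kept their direction under every alternative that gave a value, with log2 fold changes of -1.82 to -1.15, 0.46 to 0.91 and -0.75 to -0.26. Grb10 was removed by the filter at a mean of at least 50. DESeq2 called Grb10 (-1.59), which made 1 imprinted gene called in place of 0, and 2 neighbours in place of 0. The near-zero differences changed sign when 1 line was left out: with each line left out in turn, Peg3 ran from -0.028 to 0.11, Gnas ENSRNOG00000025889 from -0.058 to 0.16 and Gnas ENSRNOG00000047374 from -0.066 to 0.15. Their sign turned for Peg3 without line 19-1 (-0.028), for Gnas ENSRNOG00000025889 without control line 2 (-0.058) or line 19-1 (-0.0095), and for Gnas ENSRNOG00000047374 without line 5-9 (-0.0066), control line 2 (-0.066) or line 19-1 (-0.028). Over all genes, 40 calls became 228 with DESeq2, 9 at a mean of at least 50, 16 with nonunique none counting and 12 with RSEM, and the cause was not tested. DESeq2 with each line left out was added after seeing the data. It called 167, 135 and 280 genes without control lines 5-9, 2 and 16, and 353, 84 and 72 without PWS lines 3, 19-1 and 19-4. Of the imprinted genes it then called Grb10 without line 5-9 or 16, Mest (-0.72) without line 2, Nnat (0.88) without line 3, and 0 without line 19-1 or 19-4. It called 0 to 2 neighbours (Kcnq1 and Phactr2 without line 5-9, Cobl without line 2, Blcap and Phactr2 without line 3, and 0 without line 16, 19-1 or 19-4), 0 to 1 partners (Dll1, Sec11c, Gigyf1 or Insr) and 0 to 1 genes of the imprint machinery (Uhrf1 without line 3). The same signs turned as in limma: Peg3 without line 19-1 (-0.0289), Gnas ENSRNOG00000025889 without line 2 (-0.0615) or 19-1 (-0.0193), and Gnas ENSRNOG00000047374 without line 5-9 (-0.019), 2 (-0.0705) or 19-1 (-0.038). Under every other alternative these lists, and other imprinted genes under all, had 0 calls apart from the neighbours with DESeq2. Lines of the same number are not paired by the labels, their deviations correlated at 0.0035, 0.0467 and 0.0051, and not every line correlated best with its own number. With the replicate block, 36 genes were called in place of 40 and 0 of the imprinted genes.

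Depth limits Plagl1, Sgce, Dlk1 and Cdkn1c, for which 0 to 5 reads per line were counted, and Grb10, with 19 to 109.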
